A study of Mus musculus with 6 samples.

Results

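Replication-dependent histone genes encode the bulk histones that package newly made DNA. In the deposited count table they were taken as every listed gene whose symbol begins with Hist1h, Hist2h, Hist3h or Hist4h, which gave 71 of 34745 genes. By the histone they encode, 6 were H1 genes, 20 were H2A, 20 were H2B, 12 were H3 and 13 were H4. The release M21 GENCODE annotation of mouse genome build GRCm38 calls 67 of them protein-coding, 2 processed pseudogenes, 1 an unprocessed pseudogene and 1 a long intergenic noncoding RNA, and the symbol Hist2h2bb stands on 2 rows. The 56 Hist1 genes lie on chromosome 13, the 11 Hist2 genes on chromosome 3, the 3 Hist3 genes on chromosome 11 and Hist4h4 on chromosome 6.

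RNA was sequenced from primary renal fibroblasts of wild-type mice, the matrix-producing cells of the kidney. Fibroblasts that had attached for 6 h were either left untreated (alone, 3 libraries) or kept for 24 h under an insert with 0.4 µm pores that held Th17 cells (3 libraries), helper T cells that make interleukin-17. The Th17 cells had been induced in vitro from CD4+ T cells of the spleen, and the sources do not say whether the wells without them had an empty insert or whether libraries of a group came from separate cultures or animals. All p-values therefore measure the spread between these libraries, which may be technical. The comparison asked how fibroblast transcripts change under Th17 cells.

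Histones H2A, H2B, H3 and H4 form the core around which DNA is wrapped, and H1 binds the linker DNA between cores. Their replication-dependent genes are known for being switched on when DNA is copied and for mRNAs that have no introns and, in place of a poly(A) tail, end just after a short stem-loop bound by the protein Slbp. Some of these genes are also known to give transcripts that run past the stem-loop and carry a poly(A) tail, mostly in cells that have stopped dividing.

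The stem-loop was searched for in the annotated transcripts because it tells which form of the mRNA a listed gene can describe. The 16-base motif occurred in annotated transcripts of 46 of the 71 histone genes and in 74 of 55450 annotated genes in all (0.133%). It is shown here, 5′ to 3′ with the stem-loop in capitals and up to 5 bases on either side in lower case, for members of different classes that the results turn on. The stem-loops lie at chr13:23739512-23739527 on the plus strand (Hist1h1c), chr3:96239784-96239799 on the minus strand (Hist2h2aa2), chr13:22040966-22040981 on the minus strand (Hist1h4i) and chr13:21812129-21812144 on the plus strand (Hist1h4m), all after the coding region.
Hist1h1c: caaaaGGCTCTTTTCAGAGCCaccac
Hist2h2aa2: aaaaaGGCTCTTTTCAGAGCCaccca
Hist1h4i: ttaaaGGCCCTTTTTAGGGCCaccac
Hist1h4m: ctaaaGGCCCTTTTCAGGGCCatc

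The form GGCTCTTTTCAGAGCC was the most frequent and stood in 26 members of the H1, H2A, H2B and H3 classes. Stems that begin with GGCCC, or in some genes with GGTCC, occurred in the H4 class alone among the members, in 12 of its 13 genes. Of the 71 genes as listed in the deposited table, 28 ended within 60 bases of the stem-loop, 15 ran further past it, 3 ended before it and 25 had no stem-loop in an annotated transcript. Hist1h1c ran 840 bases past its stem-loop and Hist1h4m ended 3 bases after it. Hist1h3d ended 63 bases after its own, just outside the limit of 60, and Hist1h4h ended 49 bases after it, just inside. The listed span was identical to that in the annotation for 48 members, so the stem-loop was placed on the span of the deposited table.

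Promoters were available from RefSeq (GRCm38, 250 bases before to 50 after the start) for 63 members. Both rows of Hist2h2bb were matched to the same promoter, which holds the octamer and was counted for each row. Hist1h2aj, Hist1h2al, Hist1h2bc, Hist2h2be, Hist3h2bb-ps, Hist1h3a, Hist1h3f and Hist2h4 had no entry. The promoters were searched on both strands for the octamer ATTTGCAT, for CCAAT, for TATAAA, for the H1 box AAACACA and for GGTCC, known from H4 promoters; no motif contains another. The octamer stood in 7 of 18 H2A and 7 of 17 H2B promoters and in none of the 28 others, against 1.74% of all 32851 promoters. All 6 H1, 18 H2A, 17 H2B and 10 H3 promoters held CCAAT, as did 3 of 12 H4 promoters and 37.4% of all promoters. The H1 box stood in 5 of 6 H1 promoters against 7.18% of all, and GGTCC in 11 of 12 H4 promoters against 45.5%. TATAAA occurred in 35 of the 63 (13.6% of all). These matches describe letters only.

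The 100 bases before the start are shown for 5 tested members of the H1, H2B and H4 classes, with any of the searched motifs in capitals on the strand of the gene or its complement. Their positions are chr13:23738707-23738806 on the plus strand (Hist1h1c), chr13:21810200-21810299 on the minus strand (Hist1h2bq), chr13:23571300-23571399 on the plus strand (Hist1h2bg), chr13:22041363-22041462 on the minus strand (Hist1h4i) and chr13:21811646-21811745 on the plus strand (Hist1h4m).
Hist1h1c: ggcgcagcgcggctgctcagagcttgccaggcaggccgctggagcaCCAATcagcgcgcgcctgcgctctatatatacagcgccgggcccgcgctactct
Hist1h2bq: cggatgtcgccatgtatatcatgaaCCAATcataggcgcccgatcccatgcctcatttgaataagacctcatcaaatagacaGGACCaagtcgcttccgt
Hist1h2bg: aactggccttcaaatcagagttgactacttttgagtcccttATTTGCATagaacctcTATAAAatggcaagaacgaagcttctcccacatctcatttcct
Hist1h4i: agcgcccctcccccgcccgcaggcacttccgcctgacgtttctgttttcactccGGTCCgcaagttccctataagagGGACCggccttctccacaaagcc
Hist1h4m: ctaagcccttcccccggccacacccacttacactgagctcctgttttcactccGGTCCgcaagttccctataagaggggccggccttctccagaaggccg

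Library totals ranged from 12050529 to 13209581 counts. At this depth a floor of 3 counts equalled 0.223 to 0.254 CPM (counts set to equal library totals after TMM scaling), and this floor covers counting error only. Histone genes were rare in all libraries. Together they held 1171, 1330 and 1181 counts in the libraries alone and 3578, 3488 and 3615 with Th17 cells, which is 88.6 to 103 CPM of the unscaled library total against 272 to 283. Of the 71 genes, 68 had at least 1 count and 3 (Hist1h1t, Hist1h2aj and Hist2h2ab) had none. The filter on low counts left 21 for testing among 13088 genes. The other 50 had at most 48 counts over all 6 libraries and held 7.06% of the histone counts alone and 3.75% with Th17 cells.

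Similar sequence limits which member a fragment can be assigned to. The annotated transcripts were cut into overlapping windows of 100 bases, and the share of windows also found in another annotated gene had a median of 34.3% over the 71 genes. In 29 members at least 50% of windows were shared. The median was 69.9% for H2A genes and 0.396% for H1 genes. How the counting treated fragments that fit several genes, and whether it used strand, was not given in the sources used here.

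**Figure D1:**
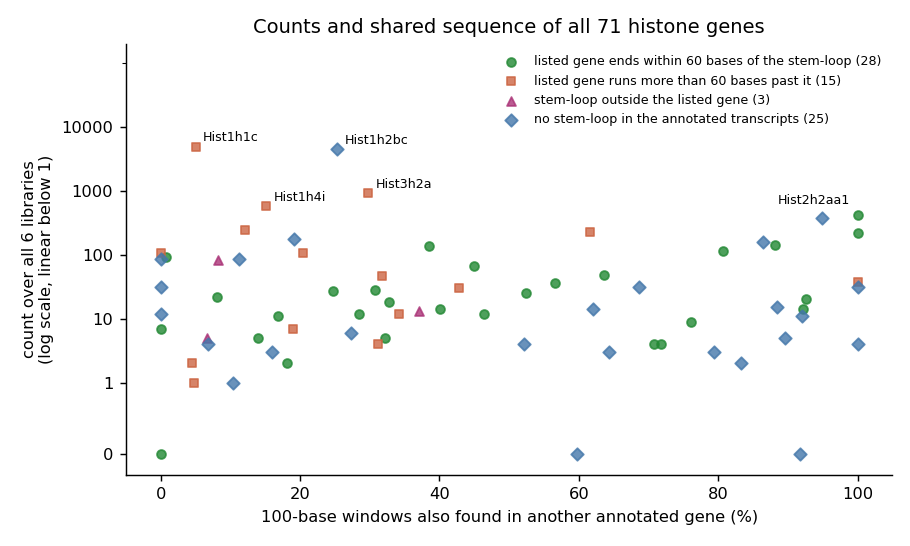
Each point is 1 of the 71 histone genes, placed by the percentage of its 100-base windows found in another annotated gene (x axis) and by its counts summed over the 6 libraries (y axis, log scale, linear below 1). Marker shapes give where the listed gene ends relative to its stem-loop. Hist1h1c and Hist1h2bc stand highest, at 5.07% and 25.4% shared windows.

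Coculture with Th17 cells was accompanied by higher counts of histone genes of every class, although the summed H2A level overlapped between groups. Of the 21 tested, 15 were higher and none was lower at an adjusted p below 0.05 (edgeR quasi-likelihood test, Benjamini-Hochberg adjustment over all 13088 genes), where 17.1% of all genes were higher and 20% lower. At an unadjusted p below 0.05 the count was 16 higher and 0 lower, and DESeq2 likewise called 15 higher and 0 lower. With the study's further limit of a 2-fold change, 13 were higher, against 3.87% of all genes higher and 7.78% lower. The median log2 fold change of the 21 was 1.32, and that of all genes tested was 0.00. The 21 are not all members. Of them, 7 had a mean below 10 counts in the libraries alone, so that they could pass the filter only through the libraries with Th17 cells. Among the 14 with a mean of at least 10 counts alone, 10 were higher. Over all 71 genes, whatever their counts, the mean CPM was higher with Th17 cells for 43, lower for 25 and 0 in both groups for 3. Groups did not overlap in 22 of the 71, upward, and in 1, downward. Among the 21 tested these numbers were 17 and 0, and the shares over all 13088 genes tested were 24.3% and 26.1%. The 17 include members of the 7 that passed the filter through the libraries with Th17 cells, so 17 against these shares is not a result. The 1 gene apart downward was Hist1h4d, untested and named here after its values were seen. It had 2, 2 and 1 counts alone and 1, 0 and 1 with Th17 cells.

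**Figure D2:**
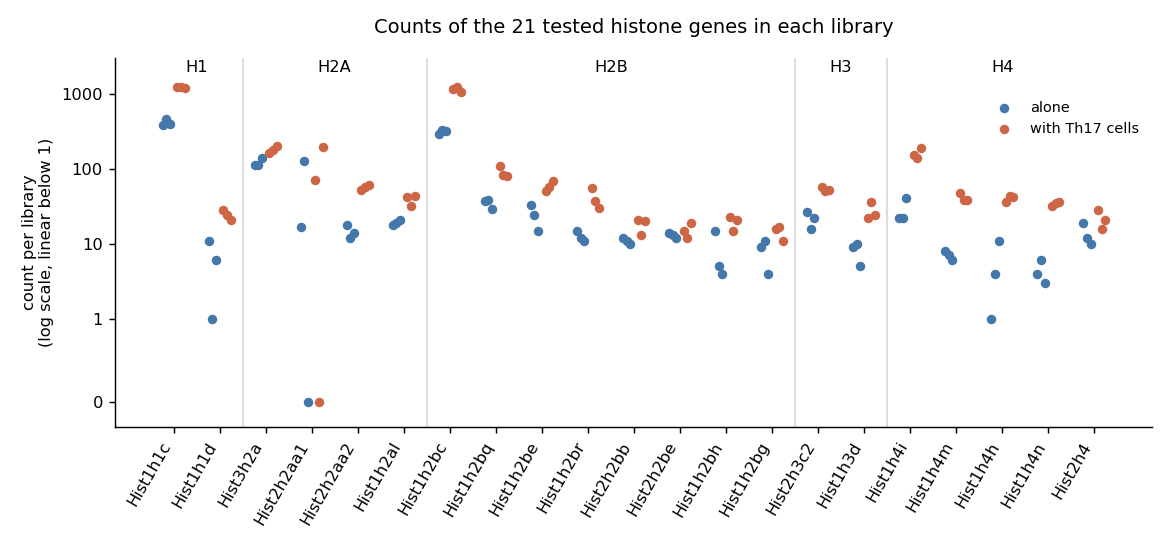
Counts in each of the 6 libraries (y axis, log scale, linear below 1) for the 21 tested histone genes (x axis), grouped by class and ordered by total count. Each point is 1 library, blue for fibroblasts alone and orange for fibroblasts with Th17 cells; Hist2h2aa1 is the gene with libraries at 0 in both groups.

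In bulk RNA, fewer cells that express a gene and less RNA per cell cannot be told apart. Marker lists of other cells the cultures could hold moved with the groups in part. Of 11 T cell markers 1 (Trac) passed the filter and was not called, and Cd3d, Cd2, Il17a and Il17f were at 0 counts in all libraries. The summed T cell markers were at 3.18 to 4.06 CPM alone and 2.36 to 3.73 with Th17 cells. Macrophage markers summed to 57.4 to 60.1 CPM alone and 19.9 to 21.1 with Th17 cells, with 4 of the 5 tested lower (20% of all genes tested). The sum of 5 endothelial markers was 6.79 to 7.52 CPM alone and 1.60 to 2.75 with Th17 cells (1 of 2 tested lower, Emcn at 0), and that of 6 epithelial markers 1.40 to 2.69 and 0.837 to 1.18 (0 of 1 tested called). All 8 fibroblast markers were present, at a sum of 33719 to 35608 CPM alone and 13995 to 15667 with Th17 cells. Of these markers 7 were lower and 1 was higher, where 20% and 17.1% of all genes tested were. Their part in the histone result was not tested.

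Histone H1 genes, which encode the linker histones, were led by Hist1h1c. This gene (ENSMUSG00000036181, chr13:23738808-23740367, plus strand, a single exon) had 382, 459 and 400 counts alone and 1242, 1227 and 1205 with Th17 cells. Every library with Th17 cells lay above every library alone, and the change was 2.81-fold (log2 1.49 ± 0.09 SE, adjusted p = 1.71e-06). Only 5.07% of its windows were shared with another gene. Hist1h1d had 11, 1 and 6 counts alone and 28, 24 and 21 with Th17 cells. It was 3.80-fold higher from these few counts (log2 1.93 ± 0.51 SE, adjusted p = 0.0154). Hist1h1d had a mean below 10 counts alone and passed the filter through the libraries with Th17 cells, so this change is not a result. Without alone replicate 1 its log2 fold change was 2.65. The third H1 gene by count, Hist1h1b, was left untested by the filter, with 7, 3 and 0 counts alone and 9, 5 and 7 with Th17 cells, and without the filter it was not called (adjusted p = 0.427). Summed over the 6 H1 genes the level was 34.4 ± 2.59 CPM alone and 96.4 ± 2.37 with Th17 cells (mean ± SD, n = 3), and Hist1h1c made up nearly all of it.

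The H2A genes gave the least uniform picture. Hist3h2a, which encodes a core H2A, had 112, 114 and 140 counts alone and 164, 181 and 204 with Th17 cells. The groups did not overlap, and the change was 1.42-fold (log2 0.51 ± 0.16 SE, adjusted p = 0.0322). It starts at the same base and on the same strand as Trim17, with which it shared 29.8% of its windows, and Trim17 itself had few counts. Leaving out any of 4 single libraries ended this call (alone replicate 1 or 2, or Th17 replicate 2 or 3), with adjusted p from 0.0795 to 0.117.

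Hist2h2aa1 and Hist2h2aa2 encode the same kind of H2A from neighbouring copies on opposite strands of chromosome 3, and 100% of the windows of each were shared. Hist2h2aa2 had 18, 12 and 14 counts alone and 53, 57 and 62 with Th17 cells, 3.70-fold higher with even replicates (log2 1.89 ± 0.23 SE, adjusted p = 0.000239). Hist2h2aa1 had 17, 127 and 0 counts alone and 72, 0 and 197 with Th17 cells. The replicates of a group thus ranged from 0 to over 100, the groups overlapped, and the gene was not called (log2 0.83 ± 1.21 SE, adjusted p = 0.627). Gm20634, a gene listed on the same strand across Hist2h2aa1 and Hist2h3c1, had 131, 50 and 52 counts alone and 418, 90 and 56 with Th17 cells. Summed over Hist2h2aa1, Hist2h3c1 and Gm20634 the counts were 154, 179 and 52 alone and 492, 90 and 281 with Th17 cells, which remained uneven between replicates. With the pair Hist2h2aa1 and Hist2h2aa2 joined into 1 row before the fit, the difference was no longer called (log2 1.16 ± 0.70 SE, adjusted p = 0.232).

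Hist1h2al, annotated as a processed pseudogene away from the main chromosome 13 cluster, had 18 to 21 counts alone and 32 to 44 with Th17 cells (log2 0.94 ± 0.24 SE, adjusted p = 0.0134). Without alone replicate 1 its adjusted p was 0.0518. It shared 19.2% of its windows, mostly with Hist2h2aa2. The 20 H2A genes summed to 18.8 ± 4.83 CPM alone and 31.0 ± 9.45 with Th17 cells (mean ± SD, n = 3), and the highest library alone lay above the lowest with Th17 cells. Without Hist2h2aa1 the sums were 15.04 ± 1.93 and 24.2 ± 2.40 CPM, and they did not overlap.

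Of the H2B genes, which encode the partner of H2A, Hist1h2bc was the most abundant. Hist1h2bc (ENSMUSG00000018102, chr13:23684199-23692488, plus strand) is annotated with up to 2 exons, and no annotated transcript of it holds the stem-loop. Its counts were 293, 333 and 326 alone and 1183, 1254 and 1068 with Th17 cells. Per gene length it was the highest member, at 33.9 ± 3.42 FPKM alone and 124 ± 11.3 with Th17 cells, followed by Hist1h1c at 20.8 ± 2.13 and 61.2 ± 1.3 FPKM (mean ± SD, n = 3). The fold change of Hist1h2bc counts was 3.50 (log2 1.81 ± 0.10 SE, adjusted p = 1.52e-06).

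Hist1h2bq and Hist1h2br are near-identical neighbours (94.8% and 86.4% of their windows shared, nearly all with each other) that are spliced over up to 3 exons in the annotation. Hist1h2bq had 37, 38 and 29 counts alone and 110, 82 and 81 with Th17 cells (log2 1.32 ± 0.19 SE, adjusted p = 0.000624). Hist1h2br had 15, 12 and 11 counts alone and 55, 37 and 30 with Th17 cells (log2 1.60 ± 0.31 SE, adjusted p = 0.00312). Joined into 1 row they were still higher, at log2 1.40 ± 0.19 SE (adjusted p = 0.000388), so the call did not hang on how fragments were split between them.

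Hist1h2be had 33, 24 and 15 counts alone and 51, 57 and 68 with Th17 cells (log2 1.22 ± 0.27 SE, adjusted p = 0.00674), within a listed span that also holds Gm11398. The other 4 tested H2B genes were not called. Hist1h2bh had 4 to 15 counts alone and 15 to 23 with Th17 cells, at log2 1.22 ± 0.46 SE (adjusted p = 0.0675). Without alone replicate 1 it was called (log2 2.0, adjusted p = 0.0119). For Hist1h2bg the log2 fold change was 0.80 ± 0.41 SE (adjusted p = 0.162), for the noncoding row of Hist2h2bb 0.63 ± 0.31 SE (adjusted p = 0.151) and for Hist2h2be 0.16 ± 0.31 SE (adjusted p = 0.716). With limma on log2(FPKM + 1), Hist1h2bh, Hist1h2bg and Hist2h2bb were called (adjusted p = 0.0222, 0.0466 and 0.0312). Hist1h2bh and Hist1h2bg had means below 10 counts alone and passed the filter through the libraries with Th17 cells. Their calls in these fits are therefore not results. Hist2h2be shared none of its windows, and its 12 to 14 counts alone lay within the 12 to 19 with Th17 cells. The 20 H2B genes summed to 35.7 ± 1.08 CPM alone and 111 ± 8.47 with Th17 cells (mean ± SD, n = 3).

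Only 2 of the 12 H3 genes, which encode a core histone whose tail carries many regulatory marks, passed the filter. Hist2h3c2 had 27, 16 and 22 counts alone and 58, 51 and 53 with Th17 cells (log2 1.24 ± 0.23 SE, adjusted p = 0.00283). Hist1h3d had 9, 10 and 5 counts alone and 22, 36 and 24 with Th17 cells (log2 1.69 ± 0.37 SE, adjusted p = 0.00605). In both the groups did not overlap, where 24.3% of all genes tested were apart upward. Hist1h3d had a mean below 10 counts alone and passed the filter through the libraries with Th17 cells, so its separation is not a result. Hist2h3c1 was uneven in the same manner as its neighbour Hist2h2aa1, with 6, 2 and 0 counts alone and 2, 0 and 28 with Th17 cells, and was not tested. The H3 class summed to 4.17 ± 0.77 CPM alone and 9.39 ± 1.13 with Th17 cells (mean ± SD, n = 3).

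Among the tested H4 genes, which encode the partner of H3, 4 of 5 were higher, against 17.1% of all genes tested. Of these 4, only Hist1h4i had a mean of at least 10 counts alone; the other 3 passed the filter through the libraries with Th17 cells, where they were high, so their place among the fold changes is not a result. Hist1h4i (ENSMUSG00000060639, chr13:22040636-22041362, minus strand) had 22, 22 and 41 counts alone and 156, 141 and 191 with Th17 cells. It was 5.41-fold higher (log2 2.43 ± 0.26 SE, adjusted p = 9.82e-05), and 15.1% of its windows were shared. Hist1h4h had 1, 4 and 11 counts alone and 36, 44 and 42 with Th17 cells, 7.08-fold higher from a low and uneven start (log2 2.82 ± 0.50 SE, adjusted p = 0.00209). Without alone replicate 3, the library with most of its counts alone, the log2 fold change was 3.92. Hist1h4m had 8, 7 and 6 counts alone and 48, 38 and 38 with Th17 cells (log2 2.47 ± 0.28 SE, adjusted p = 0.000127). Its near-identical neighbour Hist1h4n had 4, 6 and 3 counts alone and 32, 35 and 36 with Th17 cells (log2 2.88 ± 0.33 SE, adjusted p = 0.000144). In Hist1h4i all libraries with Th17 cells lay above all libraries alone, as they did in 24.3% of all genes tested. The same held for the other 3, but given how they passed the filter this is not a result.

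Joined into 1 row, Hist1h4m and Hist1h4n had 12, 13 and 9 counts alone and 80, 73 and 74 with Th17 cells (log2 2.65 ± 0.21 SE, adjusted p = 1.43e-05). Hist2h4, with no shared window, was not called (log2 0.59 ± 0.34 SE, adjusted p = 0.208), at 10 to 19 counts alone and 16 to 28 with Th17 cells. Hist1h4a, named after its values were seen, was kept from testing by the filter, and without that filter it was higher (2, 1 and 5 counts alone, 10, 12 and 16 with Th17 cells, adjusted p = 0.022). The 13 H4 genes summed to 5.47 ± 1.28 CPM alone and 24.2 ± 2.09 with Th17 cells (mean ± SD, n = 3), a ratio of 4.42. That ratio was 2.81 for H1, 1.65 for H2A, 3.09 for H2B and 2.25 for H3, and the differences between classes were not tested.

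**Figure D3:**
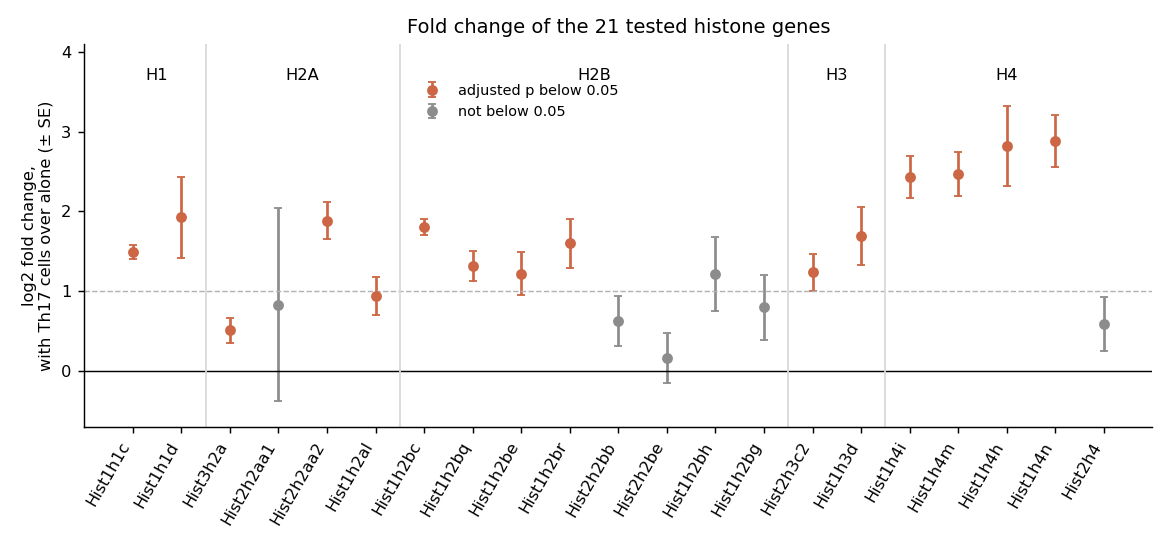
Log2 fold change (with Th17 cells over alone, y axis) and its SE for the 21 tested histone genes (x axis), grouped by class. Orange points passed an adjusted p of 0.05, grey points did not, and the dashed line marks a 2-fold change; Hist1h4i, the H4 gene with most counts, is at 2.43.

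**Figure D4:**
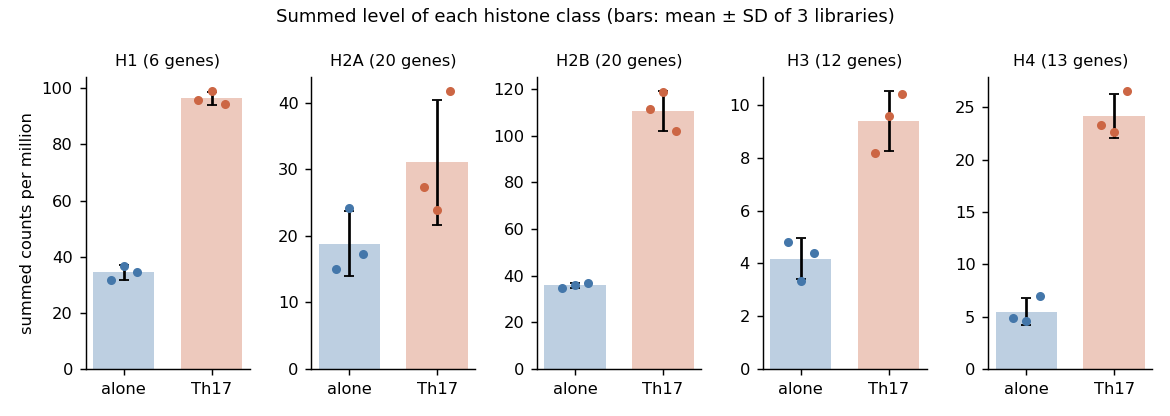
Summed CPM of each histone class (y axis from 0, separate scale per class) in fibroblasts alone and with Th17 cells. Bars are means with SD over 3 libraries and points are libraries; only in H2A do the libraries of the groups overlap.

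Most of the histone signal came from 2 genes. Hist1h1c and Hist1h2bc held 59.6% of the histone counts alone and 67.2% with Th17 cells. Over all 71 genes the sum was 98.6 ± 7.17 CPM alone and 272 ± 4.91 with Th17 cells, a ratio of 2.76 (mean ± SD, n = 3). Without those 2 genes it was 39.8 ± 2.32 and 89.0 ± 11.8 CPM, a ratio of 2.23. The 26 members with less than 25% of windows shared summed to 45.3 ± 1.54 CPM alone and 125 ± 1.28 with Th17 cells, also a ratio of 2.76. Of those 26, 10 were tested and 6 were higher, against 17.1% of all genes tested. Of the 10, 3 had a mean below 10 counts alone and passed the filter through the libraries with Th17 cells. Among the other 7, 4 were higher. By chromosome, the ratio was 3.02 for the Hist1 genes, 2.01 for the Hist2 genes and 1.42 for the Hist3 genes, and Hist4h4 had 2 counts in all. The Hist2 sums, which include the uneven Hist2h2aa1, overlapped between groups, at 6.00 to 15.5 CPM alone and 12.7 to 31.0 with Th17 cells.

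The signal sat mainly on listed genes that do not end at a stem-loop, and most of that on Hist1h1c and Hist1h2bc. The 28 members that ended within 60 bases of it held 11.2% of the histone counts alone and 10.3% with Th17 cells. The 15 members that ran further held 52.6% and 49.5%, and Hist1h1c by itself held 33.7% and 34.4%. The 25 without a stem-loop in their annotated transcripts held 35.3% and 39.5%, most of it in Hist1h2bc. Of these 25, 21 have a single exon in the annotation and held 4.64% and 2.53%. The ratio of summed CPM between groups was 2.53 for the first set, 2.59 for the second and 3.09 for the last. Whether the libraries were made from poly(A)-selected RNA was not given in the sources used here. For 5 RNAs known to have no poly(A) tail (Rmrp, Rpph1, Terc, Rny1 and Rny3, chosen after the data had been seen) each library had 0 to 4 counts. Counts per gene do not show where along a gene its fragments lie, so these shares do not tell the forms of histone mRNA apart. The part of RNA selection in which histone transcripts were counted was not tested.

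Of the 63 members with a promoter entry, 13 were among those higher with Th17 cells. GGTCC stood in 7 of these 13 and the octamer in 1. Among the 4 tested but not called the numbers were 1 and 2, and among the 46 that the filter left untested 18 and 11. These are not all separate promoters. Hist1h2bq and Hist1h2br, both higher, have the same 100 bases before the start, with GGTCC. The promoter shared by the rows of Hist2h2bb was counted among those not called and among those untested.

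The companion lists of genes that act with histones had medians below that of the tested histone genes. The histone median of 1.32 rests on 21 members, of which 7 passed the filter only through the libraries with Th17 cells. With no filter on low counts the median of the members was 0.65. The list of DNA replication genes, the process with which these histones are normally made in step, had 34 of 53 tested genes lower and none higher, with a median log2 fold change of −0.55 (20% of all genes lower, all-gene median 0.00). Mcm6, a subunit of the helicase that opens DNA for copying, fell from 84.2 ± 1.45 to 37.1 ± 1.07 CPM (log2 −1.18 ± 0.07 SE, adjusted p = 1.48e-06). E2f7, a repressor of cell cycle genes, fell from 17.8 ± 0.812 to 8.35 ± 0.353 CPM (log2 −1.09 ± 0.11 SE, adjusted p = 6.71e-05).

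Of 26 genes for histone mRNA processing, 8 were lower and 5 higher (20% and 17.1% of all genes tested), and the median was −0.17. Slbp, the stem-loop binding protein, was at 31.9 ± 4.90 CPM alone and 27.9 ± 1.97 with Th17 cells and was not called (log2 −0.19 ± 0.12 SE, adjusted p = 0.255). Ccne2, a cyclin of S phase entry, was lower at log2 −0.62 ± 0.12 SE (adjusted p = 0.00267), while its relative Ccne1 was higher at log2 0.37 ± 0.09 SE (adjusted p = 0.0121). Snrpf, a core protein of small nuclear ribonucleoproteins, was lower at log2 −0.62 ± 0.15 SE (adjusted p = 0.00969). Cpsf3, the endonuclease that cuts the 3′ end of histone pre-mRNA, was higher at log2 0.36 ± 0.09 SE (adjusted p = 0.0105).

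Among 23 histone chaperones and acetyltransferase genes, 10 were lower and 2 higher (20% and 17.1% of all genes tested), with a median of −0.16; Mcm2 is also on the DNA replication list. Daxx, a chaperone of the variant H3.3, fell from 140 ± 5.27 to 44.9 ± 1.26 CPM (log2 −1.64 ± 0.07 SE, adjusted p = 1.64e-07). Chaf1b, a subunit of the factor that places new H3 and H4 behind the replication fork, fell by 1.04 on the log2 scale (± 0.12 SE, adjusted p = 0.000125). Nap1l1, a chaperone of H2A and H2B, was higher at log2 0.47 ± 0.06 SE (adjusted p = 0.000317). Cabin1, a part of the chaperone complex for H3.3, was higher at log2 0.27 ± 0.09 SE (adjusted p = 0.0388), but this call was lost when any 1 of 5 libraries was left out (each alone library, or Th17 replicate 1 or 2, adjusted p from 0.0507 to 0.129).

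Histone genes listed as expressed outside replication make mostly variant histones. Of 12 tested, 4 were lower and 2 higher, where 20% and 17.1% of all genes were, and the median was −0.20. Cenpa, the H3 variant of centromeres, fell from 26.8 ± 2.71 to 11.5 ± 1.15 CPM (log2 −1.22 ± 0.12 SE, adjusted p = 5.94e-05). H2afv, a variant of the H2A.Z type, was lower at log2 −0.74 ± 0.15 SE (adjusted p = 0.0045). H2afj rose from 27.5 ± 1.68 to 47.7 ± 9.42 CPM (log2 0.79 ± 0.14 SE, adjusted p = 0.0016). H2afx, the variant phosphorylated at DNA breaks, which is known to give both a stem-loop mRNA and one with a poly(A) tail, was higher at log2 0.37 ± 0.10 SE (adjusted p = 0.015). Without alone replicate 3 or Th17 replicate 2 the adjusted p of H2afx was 0.0511 or 0.0512.

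**Figure D5:**
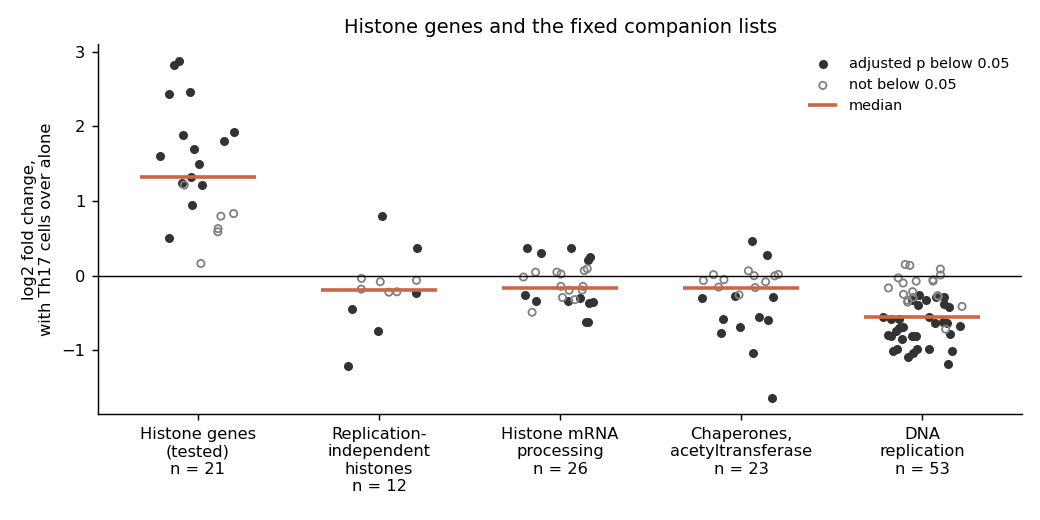
Log2 fold change (with Th17 cells over alone, y axis) of each tested gene in the histone gene set and the companion lists (x axis). Filled points passed an adjusted p of 0.05, open points did not, and orange lines are medians, at 1.32 for the histone genes and −0.55 for DNA replication. Of the 21 histone genes, 7 passed the filter only through the libraries with Th17 cells.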

How the data were processed

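Gene counts were compared between fibroblasts alone and fibroblasts with Th17 cells, 3 libraries each, grouped by the titles of the samples. Per the labels and the study's methods, the authors aligned reads with HISAT2 2.0.4, quantified genes with StringTie 1.3.3b and used genome mm10 (GRCm38). The deposited counts were whole numbers, and the FPKM values that the authors deposited beside them equal counts scaled by library total and 1 length per gene. Counts were tested in R 4.3.3 with edgeR 4.0.16 (filterByExpr with a minimum count of 10, TMM, glmQLFit, glmQLFTest, Benjamini-Hochberg adjustment over 13088 genes), and the biological coefficient of variation was 11.6%. CPM values use TMM library sizes. SE is the log2 fold change divided by the square root of F. A call needed an adjusted p below 0.05, with the study's 2-fold limit as a second rule.

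Members and companion lists were chosen with earlier results of these data known. All tested members are named. Values in every library are given for the 3 members of each class with most counts and for each member past the 2-fold limit. Of each companion list, Slbp and the 2 lowest and 2 highest called genes with a mean of at least 100 counts are named. Of the replication-independent list, 19 of 20 symbols were found. The Ensembl identifiers of 2 members were not in the annotation, and these were matched by symbol.

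Alternatives were DESeq2 1.42.0, other scalings and filters, limma 3.58.1 on log2(FPKM + 1), a replicate block, a gene length offset in 20 bins, leaving out each library, and leaving out members that overlap another gene. Joining near-identical members (at least 80% of windows shared), keeping members with under 25% shared, and leaving out Hist1h1c with Hist1h2bc or Hist2h2aa1 were chosen once the data were known. On simulated counts for 12948 genes with 197 changed, edgeR recovered 196 and DESeq2 192, with 13 and 10 false calls. The simulation gave every gene the same dispersion and all changed genes the same size of change. It therefore does not show how members with few or uneven counts are recovered. Further steps used Python 3.11.15, pandas 2.3.3 and matplotlib 3.10.9.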

Additional observations from a re-analysis of the deposited data

How the results depend on the processing

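No histone member was lower under any of the alternatives, and the number higher lay between 6 and 18 against 15. Every summed level kept its direction, and 196 of 204 recomputed counts, medians and sums stayed within the limits set for them. The limits were 1.5 times for counts and, for the others, the square root of both groups' summed variances on the log2 scale. That root is wider than the SD of either group. The median log2 fold change of the members was 0.65 with no filter on low counts (68 members tested, 16 higher) and 0.95 with limma on log2(FPKM + 1) (18 higher, 10 past 2-fold), against 1.32. With at least 10 counts in every library, which tests fewer members, 8 were past the 2-fold limit and 10 were higher. Keeping only members with under 25% of windows shared left 6 higher and 5 past the limit, from 10 tested. Among the 7 of these with a mean of at least 10 counts alone, 4 were higher. Joining near-identical members left 12 higher. The summed histone level had a log2 ratio of 1.58 with the deposited FPKM values and 1.16 without Hist1h1c and Hist1h2bc, against 1.46. Leaving out those genes took the H2B sum from 1.63 to 1.07.

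Leaving out single libraries gave 14 to 16 members higher. The log2 fold change of Hist2h2aa1 then ranged from −0.49 (without Th17 replicate 3) to 3.31 (without alone replicate 2) and that of Hist2h2be from −0.016 to 0.29. Neither gene was called in these fits, and the cause was not tested. No pairing by replicate number was visible, as same-numbered libraries had correlations of 0.0157, −0.0256 and −0.0036 between their deviations. These values cannot show whether the libraries were prepared in pairs. With the replicate block, 15 members were higher and 13 past the limit, as without it. Of the 50 members left out by the filter, 47 were tested without it, and 1 of them (Hist1h4a) was called; for the others no difference was detectable at this depth.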
